A study of Mus musculus with 2 samples.

Results

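A population of mesenchymal barcodes that carries RNA of Ogn, Npnt, Foxf1, Slit2, Gucy1a1 and Rspo3 was described in single-cell RNA sequencing of the embryonic day 14.5 mouse genital tubercle. Barcodes were kept with at least 4000 unique molecular identifiers (UMIs, each standing for 1 captured RNA molecule), at least 500 genes, at most 10% mitochondrial UMIs and no UMI of the epithelial gene Epcam, the endothelial gene Cdh5, the glial gene Sox10 or the immune gene Ptprc. Members were the kept barcodes with at least 1 UMI in 4 or more of the 6 genes, 1311 of 25346 in all. The male library held 592 members of 12192 kept barcodes (4.86%, exact 95% interval 4.48 to 5.25%) and the female library 719 of 13154 (5.47%, 5.08 to 5.87%). The reference was the kept barcodes with at most 1 of the 6 genes, 8249 male and 8572 female, and the 3351 male and 3863 female barcodes with 2 or 3 of the genes lay between both. Members were thus chosen by the measured UMIs of the 6 rule genes and the 4 excluding genes. Since the rule reads these UMIs, every difference of members from the reference is a description and was given no test.

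The genital tubercle is the embryonic outgrowth that becomes the penis or the clitoris. The study compared male with female tubercles of wild-type C57BL/6 embryos at Theiler stage 22. Embryos were sexed by genotyping, 3 of each sex were taken from 2 litters, and tubercles were pooled by sex before dissociation with collagenase, so that each sex is 1 library of a pool and differences between embryos were not analysed here. The male library held 130105692 UMIs and the female library 144515562. All intervals below are exact 95% intervals that cover counting error only, and with 1 library per sex no value has a replicate check.

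The 6 genes have known roles in signalling between mesenchyme and its surroundings. Foxf1 encodes a forkhead transcription factor that responds to Hedgehog signals in the mesenchyme of gut and lung, where the adjoining epithelium makes the signal. Rspo3 encodes an R-spondin, a secreted protein that strengthens Wnt signalling through Lgr receptors, and Slit2 encodes a secreted ligand of Robo receptors that guides axons and cells. Gucy1a1 encodes the alpha subunit of the soluble guanylate cyclase, which makes cyclic GMP when nitric oxide binds it and relaxes smooth muscle. Ogn (osteoglycin) is a small leucine-rich proteoglycan of the collagen matrix, and Npnt (nephronectin) a matrix ligand of integrins in basement membranes.

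Levels were UMIs summed over the barcodes of a population and library scaled by all UMIs of that sum to CPM, the usual library-size unit, and ratios are given as log2. The 6 genes chose the members, so their levels show only how far the rule separated the populations. In the male library Rspo3 (chromosome 10, 29452416 to 29535867 of the mm10 build) was at 316 CPM in members against 45.5 CPM in reference barcodes, and in the female library at 360 against 57.0 CPM. Slit2 (chromosome 5, 47983138 to 48307733) was at 160 against 19.98 CPM in the male library and 177 against 23.6 CPM in the female library. Foxf1 (chromosome 8, 121084386 to 121088144) was at 138 against 13.2 CPM and at 131 against 12.9 CPM in the same order. The other 3 genes separated the populations in both libraries as well. Ogn (chromosome 13, 49608046 to 49624501) was at 122 CPM in members against 16.4 CPM in reference barcodes of the male library, and at 105 against 8.43 CPM in the female library. Npnt (chromosome 3, 132881745 to 132950291) was at 106 against 7.07 CPM in the male library and 83.8 against 5.05 CPM in the female library. Gucy1a1 (chromosome 3, 82092427 to 82145789) had the widest ratio of the 6, with 97.7 CPM in members against 4.40 CPM in reference barcodes of the male library (log2 4.47, interval 4.25 to 4.70) and 77.2 against 3.1 CPM in the female library (log2 4.64, 4.40 to 4.88).

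No single one of the genes was present in every member. A Rspo3 UMI was found in 540 of 592 male members (91.2%) and 669 of 719 female members (93.0%), a Slit2 UMI in 81.1% and 82.1%, a Foxf1 UMI in 72.1% and 74.8% and an Npnt UMI in 66.7% and 65.1%. Ogn and Gucy1a1 were the least complete, with an Ogn UMI in 57.9% of male and 61.3% of female members and a Gucy1a1 UMI in 60.0% and 56.3%. Immune barcodes, which should lack these genes, had an Ogn UMI in 4 of 87 male and 1 of 56 female barcodes and a Rspo3 UMI in 20 and 9 of them. The median depth was 8223 UMIs in male and 9566 UMIs in female members, against 10765 and 12093 UMIs in immune barcodes. Endothelial barcodes had an Npnt UMI in 32.2% of 171 male and 28.7% of 115 female barcodes, so Npnt was also present outside mesenchyme. The commonest combinations held Slit2 and Rspo3. Npnt, Foxf1, Slit2 and Rspo3 alone were detected in 71 male and 81 female members, Ogn, Npnt, Slit2 and Rspo3 in 68 and 89, and all 6 genes in 22 and 36.

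The population has no gap at its edge. Barcodes with 3 of the genes, just outside the rule, numbered 1124 male and 1344 female and had a summed level of the 6 genes of 723 and 698 CPM. Those with 4, just inside, numbered 442 and 520 and were at 885 and 900 CPM. Detection grows with depth: members had a median of 8223 UMIs in the male library and 9566 in the female, against 5632 and 5790.5 UMIs in reference barcodes. With every kept barcode thinned to 4000 UMIs, 203 male (1.67%, interval 1.45 to 1.91%) and 195 female barcodes (1.48%, 1.28 to 1.70%) still met the rule, so that the male share was then the higher one and the intervals overlapped. The median mitochondrial share was 6.73% in male and 6.81% in female members against 6.63% and 6.60% in reference barcodes.

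The 6 genes were proposed as a set with earlier results of these data known, so how often they occur together is a description. At 4000 UMIs per barcode, barcodes with 3 or more of the other 5 genes had the left-out gene more often than barcodes with at most 1 of them for all 6 genes in both libraries. By the ratio of shares Gucy1a1 differed most, at 19.2% (116 of 604, interval 16.1 to 22.6%) of chosen male barcodes against 5.31% (524 of 9874, 4.87 to 5.77%) of the rest. In the female library it was at 16.0% (13.4 to 19.0%) against 3.80% (3.44 to 4.18%). Npnt was detected in 22.4% against 7.24% of male and 17.7% against 6.14% of female barcodes. Ogn was found in 20.2% against 9.39% of male and 16.4% against 7.46% of female barcodes. For Foxf1 the shares were 24.8% against 9.97% in the male library and 25.0% against 10.1% in the female. Slit2 and Rspo3, the most widely detected genes, had the smallest ratios of these shares in the female library, with Slit2 in 30.4% against 17.3% and Rspo3 in 48.5% against 27.3% of barcodes. The bar plot of left-out genes shows these 12 pairs.

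**Figure D1:**
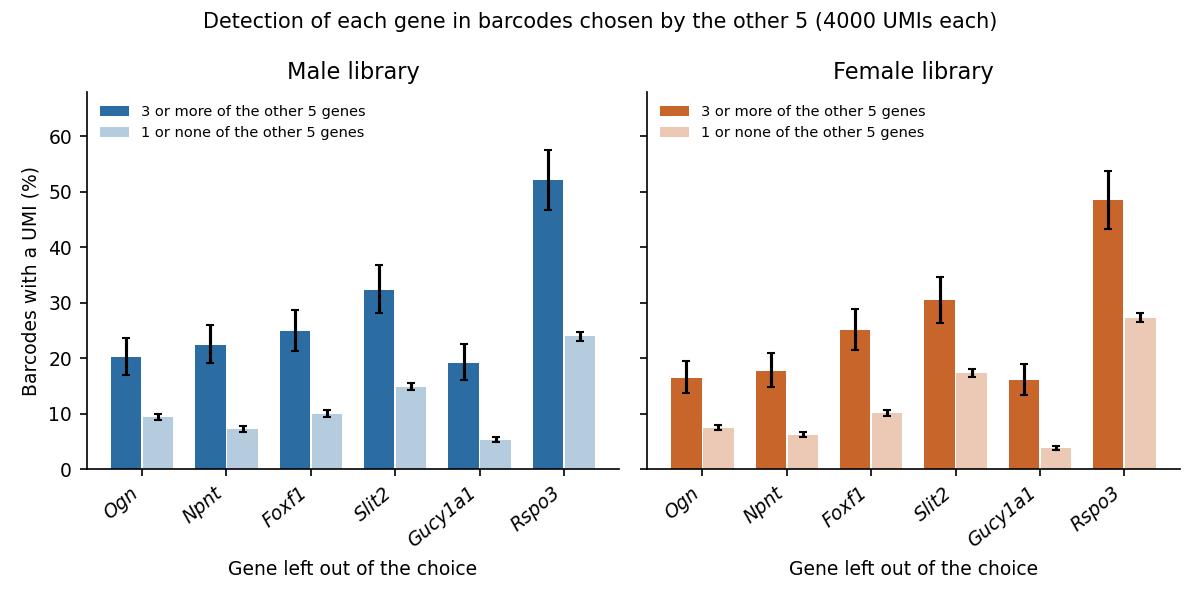
Percent of barcodes with a UMI of each gene (y axis) among barcodes with 3 or more of the other 5 genes (dark bars) and with 1 or none of them (pale bars), in the male (left) and female (right) library, all thinned to 4000 UMIs; error bars are exact 95% intervals for counting error. In each pair the dark bar is higher, from 16.0% against 3.80% for Gucy1a1 to 52.1% against 23.9% for Rspo3.

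Of the general markers of mesenchyme all 9 (Pdgfra, Col1a1, Col1a2, Col3a1, Prrx1, Twist1, Twist2, Dcn and Vim) were detected in members, at a summed level of 4497.5 CPM in male and 4295 CPM in female members against 4457 and 4469 CPM in reference barcodes. The same sum was 1745 and 2008 CPM in immune barcodes but 5184 and 5227 CPM in endothelial barcodes, so it does not set mesenchyme apart from endothelium here. Endothelial markers summed to 6.26 CPM in male and 1.82 CPM in female members, with Cdh5 at 0 by the rule, against 2.76 and 2.15 CPM in reference and 3160 and 3018 CPM in endothelial barcodes. Immune markers summed to 2.09 and 5.11 CPM in members and to 4037 and 3323 CPM in immune barcodes. Epithelial markers were at 30.3 and 17.4 CPM in male and female members, against 18.9 and 13.8 CPM in reference barcodes, and their part in the results was not tested. Glial markers were at 9.91 and 8.86 CPM in members against 10.9 and 9.85 CPM in reference barcodes, and skeletal muscle markers at 8.69 and 5.91 CPM against 36.0 and 57.9 CPM. Haemoglobin and the other erythroid genes were at 1617 and 2193 CPM in members, against 3406 and 6238 CPM in reference barcodes. Among members, an Xist UMI was found in 1 of 592 male and 717 of 719 female barcodes, and Y-linked UMIs in 449 male and 0 female barcodes. No barcode sequence was shared between male and female members, and 47 were shared between all kept barcodes of both libraries.

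Of 11607 genes with at least 100 summed UMIs in each library, the 6 rule genes left out, 142 (1.22%) were higher by log2 1 or more in members of both libraries and 196 (1.69%) were lower. Taken by library, 203 genes (1.75%) were higher by as much in male and 210 (1.81%) in female members, and 266 (2.29%) and 298 (2.57%) were lower. Those named here were also at 20 CPM or more in the higher population of each library. The highest of these was Tcf21, a bHLH transcription factor gene of visceral and urogenital mesenchyme, at 46.6 CPM in members against 4.73 CPM in reference barcodes of the male library (log2 3.30, interval 3.05 to 3.55) and 29.1 against 2.66 CPM in the female library (log2 3.45, 3.16 to 3.75). At 4000 UMIs per barcode a Tcf21 UMI was found in 14.9% of male and 10.4% of female members, against 1.53% and 0.817% of reference barcodes. Aldh1a2, which encodes the main retinoic acid-making enzyme of the embryo, was at 51.8 against 9.28 CPM in the male library (log2 2.48) and 50.5 against 4.91 CPM in the female (log2 3.36). Cldn11, a tight junction claudin gene, was at 38.6 against 6.57 CPM and 39.6 against 4.08 CPM. Gucy1b1, the gene of the beta subunit that pairs with the Gucy1a1 product, was at 29.9 against 6.49 CPM in the male library (log2 2.20, interval 1.93 to 2.47) and 23.2 against 5.13 CPM in the female library (log2 2.18, 1.91 to 2.44).

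The other 11 of the 15 highest genes at that level covered several functions. Ppargc1a, a transcriptional coactivator gene of mitochondrial biogenesis, was at log2 2.06 (male library) and 2.12 (female library), and Rarb, a retinoic acid receptor gene that itself responds to retinoic acid, at 1.74 and 1.58. Fxyd7, a regulator of the sodium pump, was at 103 CPM in members against 27.6 CPM in reference barcodes of the male library and at 105 against 21.9 CPM in the female. Kcnb2, a voltage-gated potassium channel gene, was at log2 1.68 and 2.23, and the RNA-binding protein gene Khdrbs2 at 1.83 and 2.50. Akap12, a scaffold gene of protein kinase A, was at 1.56 and 1.58, the membrane repair gene Myof at 1.53 and 1.55, and the X-linked kinase gene Nrk at 1.77 and 1.67. Fam46a was at 1.87 and 2.29, Calml4 at 1.77 and 1.91 and Tceal6 at 1.83 and 1.52. Genes under that level could be higher still, such as Pnoc at 4.36 and 3.91 and Anxa1, an annexin gene, at 3.25 and 2.99. All intervals of the 15 lay above log2 1 in both libraries, as the dot plot of named genes shows. With at most 5% mitochondrial UMIs, which left 25 male and 22 female members, Gucy1b1 was at -0.16 and Akap12 at -1.34 in the male library and Calml4 at -0.27 in the female library.

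Among the 15 lowest genes, at 20 CPM or more in reference barcodes of both libraries, were secreted signals, their antagonists and regional transcription factors. Bdnf, a neurotrophin gene, was at 6.09 CPM in members against 31.4 CPM in reference barcodes of the male library (log2 -2.37, interval -2.89 to -1.89) and 7.5 against 44.5 CPM in the female library (log2 -2.57, -2.95 to -2.22). Notum, which encodes an enzyme that inactivates Wnt proteins and is itself a Wnt target, was at log2 -2.36 and -2.25. The Wnt feedback gene Nkd1 was at 38.1 against 112 CPM in the male library and 34.1 against 112 CPM in the female. Grem1, a BMP antagonist gene, was at log2 -2.24 and -1.79, and Tac1, the precursor gene of substance P, at -2.09 and -1.88. Transcription factor genes of other regions were low as well, with Sim1 at -1.81 (male library) and -2.52 (female library), Tbx18 at -1.79 and -1.98, Sp9 at -1.79 and -1.96, Prdm1 at -2.00 and -2.97 and Twist2 at -1.70 and -1.54. The desmosomal cadherin gene Dsc3 was at -2.16 and -2.56, the integrin gene Itga6 at -1.77 and -1.91, Igfbp7 at -1.73 and -2.39, the potassium channel gene Kcna4 at -1.70 and -1.90 and the non-coding gene Gm43376 at -2.06 and -2.29.

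**Figure D2:**
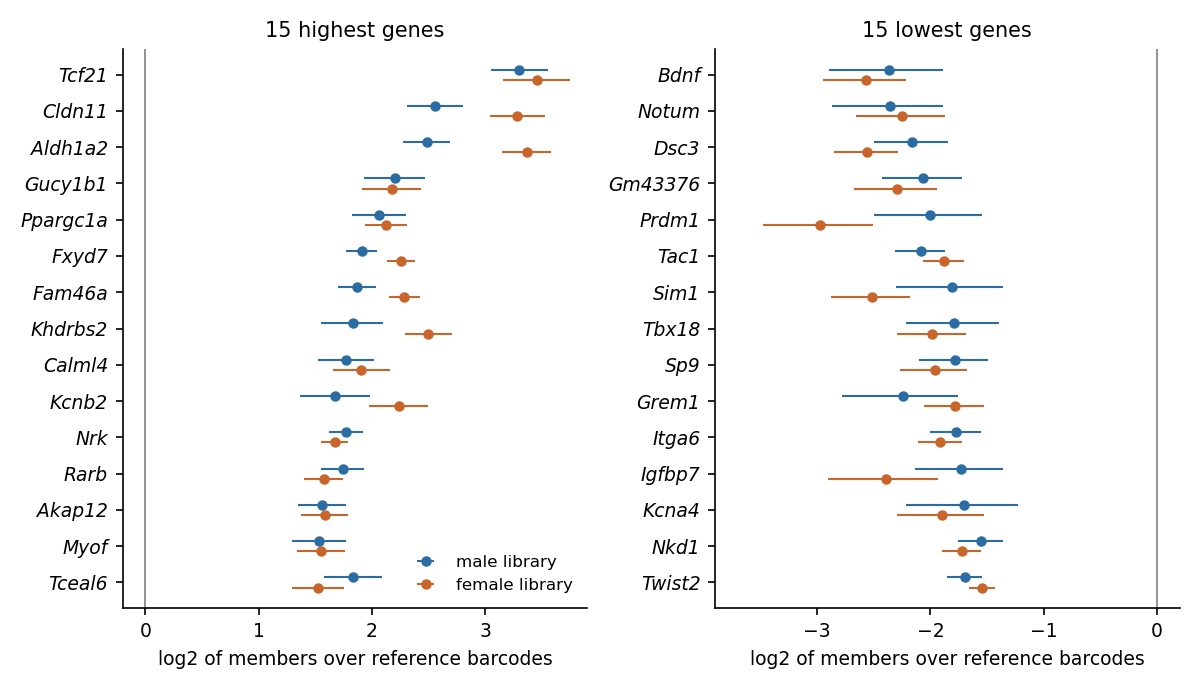
log2 ratio of members over reference barcodes (x axis) for the 15 highest (left) and 15 lowest (right) genes named by rule, with the male library above the female library in each row; bars are exact 95% intervals for counting error. Tcf21 reached 3.30 and 3.45 and Bdnf -2.37 and -2.57 in the male and female library.

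Genes of the Hedgehog pathway, which carries a signal of the urethral epithelium to tubercle mesenchyme, were mostly higher in members. Of 15 measured, 12 were above 0 and 2 below 0 in both libraries, against 53.3% and 24.4% of all 11607 genes, with a list median of 0.29 (male library) and 0.24 (female library) against 0.09 in both over all genes. Foxl1, a forkhead target gene of the pathway in gut mesenchyme, was at 22.6 CPM in members against 2.73 CPM in reference barcodes of the male library (log2 3.05, interval 2.70 to 3.40) and at 15.9 against 1.68 CPM in the female library (log2 3.25, 2.86 to 3.63). Hhip, a feedback antagonist that binds Hedgehog proteins, was at 20.3 against 4.23 CPM and 19.3 against 5.15 CPM, and the receptor and target gene Ptch1 at 276 against 122 CPM in the male library and 288 against 128 CPM in the female. Foxf2, the paralogue of Foxf1, was at 205 against 104 CPM and 252 against 117 CPM, a log2 of 0.98 and 1.10. The co-receptor gene Gas1 and its partner Cdon were the 2 members of the list below 0 in both libraries.

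The 9 measured genes of nitric oxide and cyclic GMP signalling had a median of 1.06 (male library) and 0.69 (female library). In both libraries 8 of them were above 0, against 53.3% of all genes. Beside Gucy1b1 these included Prkg2, a cyclic GMP-dependent kinase gene, at 16.0 CPM in members against 4.43 CPM in reference barcodes of the male library and at 18.6 against 6.69 CPM in the female library. Pde9a, a phosphodiesterase gene that breaks down cyclic GMP, was at 10.1 against 3.36 CPM and at 8.97 against 3.22 CPM. The clearance receptor gene of natriuretic peptides, Npr3, was the exception, at log2 -2.20 (interval -3.53 to -1.14) in the male and -1.13 (-1.79 to -0.54) in the female library.

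Of 16 measured guidance genes 10 were above 0 and 4 below 0 in both libraries, shares near the 53.3% and 24.4% of all genes. Past log2 1 in both, against 1.22% of all genes, were 4 genes of semaphorins and their receptors. The secreted semaphorin gene Sema3c was at 30.1 CPM in members against 11.7 CPM in reference barcodes of the male library and 27.6 against 9.30 CPM in the female. The receptor genes Plxna2 and Nrp2 were at log2 1.32 and 1.15 in the male and 1.50 and 1.37 in the female library, and Sema3d at 1.28 and 1.44.

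Wnt and FGF genes mostly lay the other way. Of 18 measured Wnt genes, 12 were below 0 in both libraries and 4 above, against 24.4% and 53.3% of all genes. Medians were -0.45 (male library) and -0.89 (female library). By log2 1 in both libraries, against 1.22% and 1.69% of all genes, none was higher and 5 were lower. Besides Nkd1 these were Wnt4 (log2 -1.02 and -1.74), the secreted antagonist genes Wif1 (-1.25 and -1.46) and Dkk1 (-1.37 and -1.26), and Axin2. Compared with the reference, members thus had low levels of the Wnt target genes Axin2, Nkd1 and Notum. Rspo3, which the rule used, was high in them. Of 13 FGF pathway genes, 9 were below 0 in both libraries and 3 above, against 24.4% and 53.3% of all genes. By log2 1, against 1.69% and 1.22% of all genes, 6 were lower and 1, the ligand gene Fgf10, was higher (1.43 and 1.38). The transcriptional effectors of FGF signalling Etv4 and Etv5 were at 2.61 and 3.65 CPM in male members against 14.0 and 12.2 CPM in male reference barcodes, and at 1.70 and 3.07 CPM against 14.2 and 13.2 CPM in the female library. The ligand genes Fgf9 and Fgf18 were at log2 -1.75 and -1.96 in the male and -1.06 and -1.36 in the female library. Etv4 and Fgf18 had few UMIs in members, and their intervals span over 1 log2 unit in the male library.

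**Figure D3:**
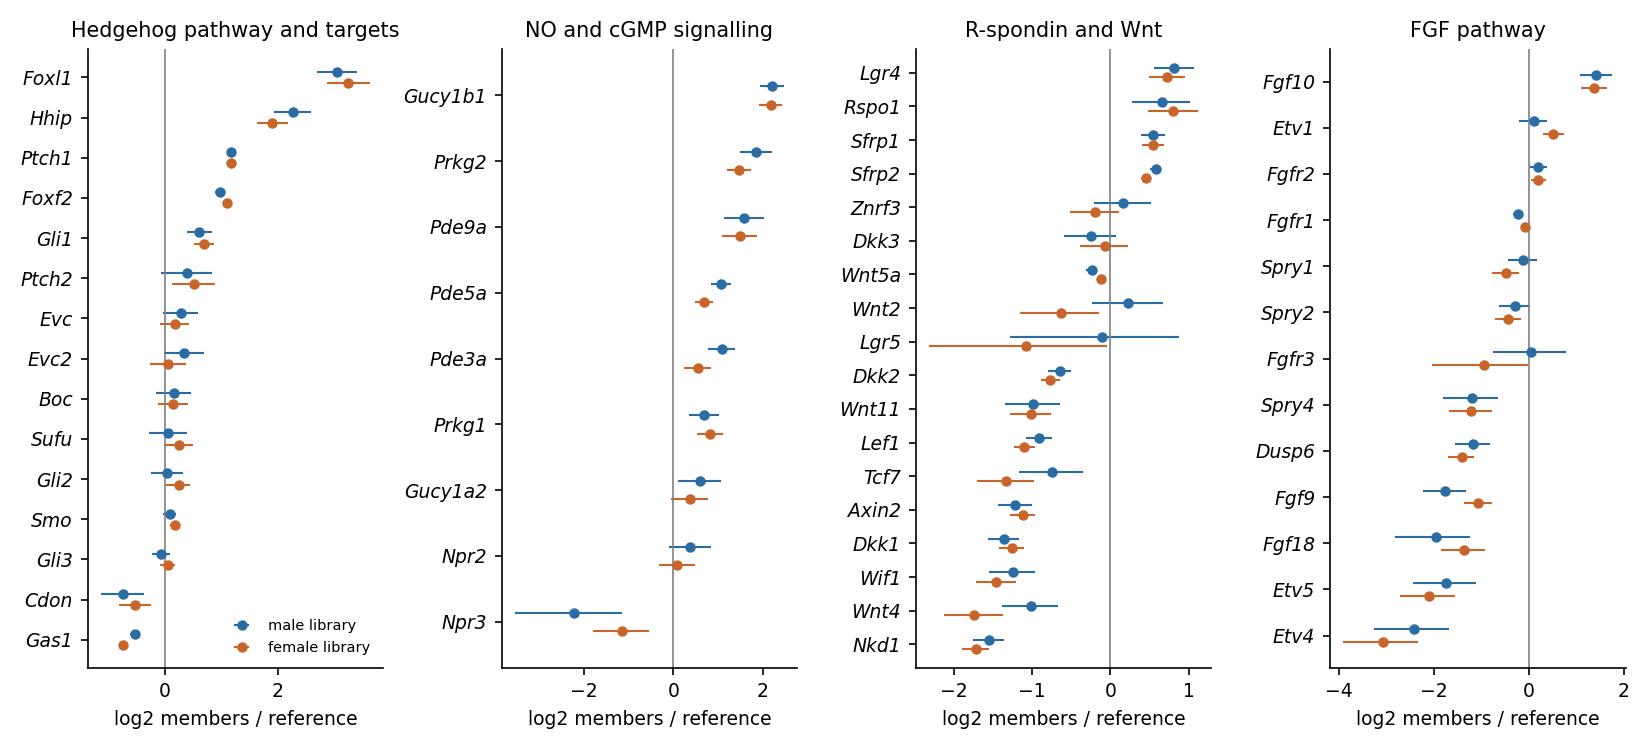
log2 ratio of members over reference barcodes (x axis) for the measured genes of 4 pathway lists, ordered by the mean of both libraries, with the male library above the female library in each row and exact 95% intervals; the rule genes are left out. Hedgehog and cyclic GMP genes lie mostly right of 0 and Wnt and FGF genes mostly left of it.

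Retinoic acid genes were split. Aldh1a2, Rarb and the retinal reductase gene Dhrs3 (19.3 CPM in members against 5.55 CPM in reference barcodes of the male library and 14.7 against 4.37 CPM in the female) were the 3 of 10 measured genes higher by log2 1, against 1.22% of all genes. The retinol receptor gene Stra6 was at log2 -0.75 and -0.86. Of 9 forkhead genes, 7 were above 0 in both libraries, against 53.3% of all genes. Foxd2 at 1.51 and 1.71 and Foxp2 at 1.60 and 1.09 passed log2 1 together with Foxl1. The 8 measured posterior Hox genes, which pattern the hindmost body and its outgrowths, were all above 0 in both libraries, against 53.3% of all genes. They were so by small amounts, with medians of 0.34 and 0.30. Hoxa13, required for tubercle outgrowth in the mouse, was at 121 CPM in members against 74.1 CPM in reference barcodes of the male library (log2 0.71) and 112 against 69.7 CPM in the female (log2 0.68). Eya1, a transcriptional cofactor gene of urogenital development, was at 85.0 CPM in members against 34.8 CPM in reference barcodes of the male library (log2 1.29) and 86.0 against 34.5 CPM in the female (log2 1.32). Tbx15, under 20 CPM in male reference barcodes, was low in members, at -2.70 and -2.67, against -2.37 and -2.57 for Bdnf.

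Genes of several other tubercle domains were low in members. Barcodes with at least 2 of Msx1, Msx2 and Dlx5 made up 3286 of 8249 male and 3108 of 8572 female reference barcodes. Relative to this partly distal reference, all 7 distal factor genes were below 0 in both libraries, against 24.4% of all genes. Of the 7, 4 were lower by log2 1, against 1.69%. Among the 7 were the homeobox genes Msx2 (49.7 CPM in members against 157 CPM in reference barcodes of the male library, 48.4 against 129 CPM in the female) and Dlx2. The 4 genes of the Sim1, Tbx15 and Agtr2 domain were below 0 in both libraries, with the angiotensin receptor gene Agtr2 at -2.65 and -2.30. Rprm, Pcdh10 and Spock3 lay below 0 too, and Foxd1 at -0.41 and -0.51, while Sall3 and Lbx2 lay on opposite sides of 0 in the 2 libraries. The Aldh1a2 and Tcf21 domain and most of the skeletal-like list were high. Of the skeletal-like list 4 of 5 genes were above 0 in both libraries, against 53.3% of all genes. Scx, a tendon progenitor factor, was at 48.5 CPM in members against 22.6 CPM in reference barcodes of the male library and 50.4 against 16.5 CPM in the female (log2 1.10 and 1.62). Sox9, the cartilage factor, was at 82.6 against 50.2 CPM in the male and 123 against 44.9 CPM in the female library (log2 0.72 and 1.45).

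Members were set beside the reference barcodes that carried at least 2 of Aldh1a2, Tcf21 and Wt1 (83 male and 34 female), which share their leading genes. Aldh1a2 and Tcf21 chose that group and were at 51.8 and 46.6 CPM in male members, against 417 and 280 CPM in its male barcodes. Outside that choice, Cldn11 was at 38.6 CPM in male members and 39.6 CPM in female members against 97.6 and 53.6 CPM in that group, and Gucy1b1 at 29.9 and 23.2 CPM against 37.6 and 24.7 CPM. Akap12 was higher in that group as well, at 101 and 53.6 CPM against 42.3 and 31.5 CPM in members. So were Fam46a, at 115 and 148 CPM against 72.2 and 83.4 CPM, and Kcnb2. Fxyd7 (103 and 105 CPM in members against 37.6 and 37.1 CPM), Khdrbs2, Calml4, Tceal6 and Myof were higher in members. Ppargc1a, Nrk and Rarb went opposite ways in the male and female library. Foxf1 was at 138 and 131 CPM in male and female members, against 154 and 86.6 CPM in that group, where at most 1 rule gene was allowed. In barcodes with at least 2 of Msx1, Msx2 and Dlx5, Gucy1b1 was at 5.53 and 5.09 CPM and Cldn11 at 2.15 and 1.53 CPM in the male and female library. Notum was at 68.5 and 66.4 CPM there, against 6.43 and 6.59 CPM in members. Barcodes with at least 2 of Sim1, Tbx15 and Agtr2 had Notum at 8.04 and 9.65 CPM, and the Aldh1a2, Tcf21 and Wt1 group at 11.3 and 4.12 CPM. Sp9 was at 16.3 and 11.2 CPM in members but at 8.04 and 8.39 CPM in the Sim1, Tbx15 and Agtr2 barcodes. Gm43376 was at 12.2 and 7.50 CPM in members and at 4.89 and 7.14 CPM in those barcodes. Low Notum, Sp9 and Gm43376 were thus not particular to members. Nkd1 was at 37.6 and 28.9 CPM in the Aldh1a2, Tcf21 and Wt1 group but at 222 and 185 CPM in the Sim1, Tbx15 and Agtr2 barcodes.

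Matrix genes differed by kind. Of the small leucine-rich proteoglycans measured besides Ogn, Aspn (asporin) was at 23.8 CPM in members against 5.10 CPM in reference barcodes of the male library (log2 2.22, interval 1.92 to 2.52) and 15.4 against 2.57 CPM in the female library (log2 2.59, 2.24 to 2.93). Lum (lumican) was lower, at 36.3 against 93.1 CPM and 16.9 against 75.0 CPM, and Dcn (decorin) was at log2 -0.64 and -0.66. Of 19 fibrous matrix genes 11 were above 0 and 7 below 0 in both libraries, the first near the 53.3% of all genes, and none passed log2 1 in both in either direction. The collagen gene Col3a1 was at 883 against 517 CPM in the male and 745 against 489 CPM in the female library. Among the partners of nephronectin and other basement membrane genes, 12 of 16 were above 0 in both libraries, against the same 53.3%. The Fraser complex gene Fras1 was at log2 1.00 and 0.91 and the nidogen gene Nid1 at 0.78 and 0.52.

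Of 8 measured smooth muscle genes 5 were above 0 in both libraries, near the 53.3% of all genes, and none was below 0 in both, and the contractile genes Acta2 and Tagln lay on opposite sides of 0 in the male and female library. Myocd, which encodes the coactivator of serum response factor that turns on smooth muscle genes, was at 13.0 CPM in members against 3.1 CPM in reference barcodes of the male library and 9.65 against 2.51 CPM in the female library (log2 2.07 and 1.95). Mylk, the myosin light chain kinase gene, was at 41.2 against 18.9 CPM and 35.3 against 17.1 CPM. The smooth muscle actin gene Acta2 was at 177 CPM in members against 55.6 CPM in reference barcodes of the male library (log2 1.67, interval 1.57 to 1.78), but at 31.0 against 41.7 CPM in the female library (log2 -0.43, -0.61 to -0.25). Tagln (transgelin) was at log2 1.08 and -0.19. In male members 68.9% of Acta2 UMIs lay in the 10 barcodes with the most, and in female members 81.7%. With barcodes above 2 times the median depth left out, Tagln in the male library was at log2 -0.61, and among the 25 male members with at most 5% mitochondrial UMIs Acta2 was at -1.32 and Mylk at -1.86.

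Cell cycle genes were close to the reference level. Of 15 S phase genes 14 were below 0 in both libraries, against 24.4% of all genes, with medians of -0.08 (male library) and -0.19 (female library). Of 15 mitosis genes 8 were below 0 and 5 above 0 in both, against 24.4% and 53.3%, with a median of -0.08 in each. The TGF-beta ligand gene Tgfb3 was at log2 0.93 and 0.86. Esr1, the oestrogen receptor gene, was at 5.56 against 2.80 CPM and 5.57 against 1.88 CPM (log2 0.99 and 1.57), with 32 UMIs in male members.

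Ogn, Foxf1 and Gucy1a1 lie beside genes of related function, which were chosen for a closer look after their values were seen. On chromosome 3, Gucy1b1 (82032006 to 82074689) lies next to Gucy1a1 on the same strand. Tdo2, a tryptophan-degrading enzyme gene of no related function farther along, was higher in members too, at log2 3.01 (interval 1.76 to 4.23) in the male library and 3.93 (2.86 to 5.10) in the female, on 12 and 25 member UMIs. On chromosome 8, Foxf1 is followed by Mthfsd, Foxc2 (121116171 to 121118895) and Foxl1 (121127940 to 121130644). Foxc2, a forkhead gene of blood vessel and skeletal mesenchyme, had 27 UMIs in male and 42 in female members, or 4.69 CPM in members against 0.538 CPM in reference barcodes of the male library (log2 3.13, interval 2.31 to 3.93) and 4.77 against 0.406 CPM in the female library (log2 3.55, 2.80 to 4.34). Mthfsd, which lies between the forkhead genes, was at 0.57 and 0.48. On chromosome 13 the genes of 4 leucine-rich matrix proteins, Ecm2, Aspn, Omd and Ogn, follow each other on the plus strand. Aspn was high in members as given above, while Ecm2 had 5 and 10 UMIs and Omd 4 and 9 UMIs in male and female members, too few to place them. Ogn lies inside an intron of Cenpp on the opposite strand, and the sources used here give no strand setting for the counts.

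The sequence before the start of 4 of these genes is shown because the genes of each pair lie in 1 cluster and were high in members. The sequences come from RefSeq annotation of GRCm38, run 5′ to 3′ on the strand of the gene and end at the base before the RefSeq start. For Gucy1a1 the stretch stops earlier, where the first exon in the GENCODE annotation begins. Capitals mark every match, on either strand and at any position, to TATAAA (the letters of a TATA box), CAGCTG (an E-box, the site type of bHLH factors) or GGGCGG (a GC box). Where TATAAA matches on both strands overlap, the capitals run together.
Ogn, chr13:49607765-49608014, plus strand: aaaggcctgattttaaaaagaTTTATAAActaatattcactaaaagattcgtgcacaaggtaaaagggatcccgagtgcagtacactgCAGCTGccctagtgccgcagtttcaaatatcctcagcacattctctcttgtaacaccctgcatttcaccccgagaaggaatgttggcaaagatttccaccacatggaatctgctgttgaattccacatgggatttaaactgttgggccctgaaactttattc
Aspn, chr13:49544193-49544442, plus strand: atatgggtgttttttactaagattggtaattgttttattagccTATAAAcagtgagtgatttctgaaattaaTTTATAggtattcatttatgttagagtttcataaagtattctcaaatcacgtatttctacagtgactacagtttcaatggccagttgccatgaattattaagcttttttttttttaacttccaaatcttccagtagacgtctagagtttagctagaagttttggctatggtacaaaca
Gucy1a1, chr3:82145790-82145900, minus strand: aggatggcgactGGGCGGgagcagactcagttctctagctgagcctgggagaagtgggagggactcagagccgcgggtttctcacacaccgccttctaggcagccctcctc
Gucy1b1, chr3:82074712-82074961, minus strand: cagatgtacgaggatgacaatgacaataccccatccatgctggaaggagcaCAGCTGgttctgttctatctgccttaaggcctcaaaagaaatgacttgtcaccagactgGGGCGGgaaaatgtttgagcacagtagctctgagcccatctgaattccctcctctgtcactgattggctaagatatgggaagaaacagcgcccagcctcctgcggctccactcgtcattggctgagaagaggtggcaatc

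Each member of the Ogn and Aspn pair held TATAAA, which 12.4% of all 32851 windows of 250 bases before RefSeq gene starts held. In both genes these matches lie nearer the far end of the stretch than the RefSeq start, so they do not mark a TATA box promoter. Ogn and Gucy1b1 held CAGCTG, as did 13.0% of the windows, and Gucy1a1 and Gucy1b1 held GGGCGG. The GC box is common, at 32.7% of windows of 250 bases. It was in 11.7% of their first 111 bases, the part of its window shown for Gucy1a1. Those bases lie farthest from the RefSeq start, so 11.7% is not the share for stretches directly before a gene start. The GLI motif GACCACCCA of Hedgehog effectors and the forkhead motif GTAAACA, found in 0.225% and 3.17% of the 250-base windows, had no match in any of the 4 stretches. The GC content was 42.0% for Ogn, 30.0% for Aspn, 63.1% for Gucy1a1 and 51.2% for Gucy1b1. These matches describe letters and show no binding.

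The members were not uniform. Clustered without the rule genes and sex-linked genes, they fell into 6 subclusters, each with barcodes of both libraries, which are described by their leading genes and given no test. Subcluster 3 (113 male and 93 female barcodes) was led by Myocd, Tcf21, Foxp2, Cnn1, Aldh1a2 and Acta2. Foxf1 and Gucy1a1 were at their highest there in both libraries, with Foxf1 at 345 CPM in male and 346 CPM in female barcodes and Gucy1a1 at 204 and 223 CPM. Foxl1 was at 65.1 and 39.4 CPM there and Hhip at 50.2 and 54.9 CPM. Ptch1, Myocd and Gucy1b1 were also at their highest in this subcluster in both libraries, while Foxf2 was not, at 210 CPM in male and 217 CPM in female barcodes against 239 CPM in male barcodes of subcluster 6 and 297 CPM in female barcodes of subcluster 4. Its median depth of 5459.5 UMIs was the lowest of the 6.

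Subcluster 2 (127 male and 153 female barcodes), led by Pnoc, Calml4, Cd52, Anxa1, Crip2 and Sept4, held the other side of the rule. Rspo3 was at 525 CPM in male and 481 CPM in female barcodes, Slit2 at 247 and 244 CPM and Npnt at 181 and 121 CPM, while Foxf1 was at 90.6 and 101 CPM. Aspn was also highest there, at 46.9 and 31.1 CPM, and Scx was at 83.0 and 79.2 CPM. Sox9 was at 105 CPM in male and 202 CPM in female barcodes of this subcluster, against 43.4 and 35.2 CPM in subcluster 3. Mitosis genes summed to 184 and 473 CPM there, the lowest of the 6, and erythroid markers to 4417 and 4509 CPM. Cd52 and Tyrobp, genes of immune cells, were among its 10 leading genes, with Cd52 at 6.10 CPM over both libraries and at 0 in the other members. Their part in the subcluster was not tested.

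Subcluster 1 (47 male and 75 female barcodes) was led by Sim1, Agtr2, Ezr, Lum, Tbx18 and Igf1, genes that were low in members as a whole. Sim1 was at 37.1 CPM in male and 54.0 CPM in female barcodes of the subcluster and at most 8.34 CPM in any other. Subcluster 5 (53 male and 61 female barcodes) was led by Tagln, Actg2, Acta2, Mab21l2, Runx1 and Asb4, and had the lowest Foxf2, at 74.7 and 106 CPM. Acta2 was at 861 CPM in its male and 73.9 CPM in its female barcodes and Col1a1 at 1046 and 219 CPM. Epithelial markers summed to 117 and 45.3 CPM there, the highest of the 6. Subclusters 4 (144 male and 169 female barcodes, led by histone genes such as Hist1h2ap) and 6 (108 and 168 barcodes, led by mitosis genes such as Cdc20, Ccnb1 and Ube2c) were set apart by the cell cycle. The shares of members were 24.3% of male and 23.5% of female members in subcluster 4 and 18.2% and 23.4% in subcluster 6. Subcluster 3 held 19.1% of male and 12.9% of female members.

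**Figure D4:**
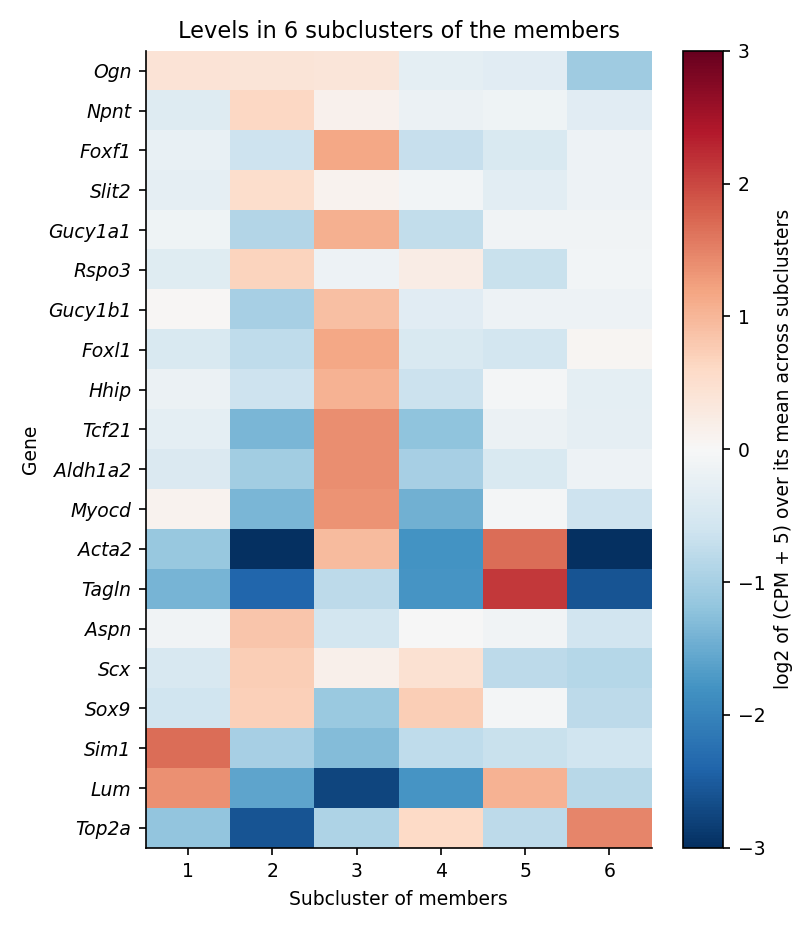
log2 of the level (CPM plus 5, mean of both libraries) of 20 genes in each of 6 subclusters of the members over the mean of the gene across subclusters (colour, red higher and blue lower). Foxf1, Gucy1a1, Foxl1, Tcf21 and Myocd are highest in subcluster 3, Rspo3, Slit2, Npnt and Aspn in subcluster 2, and Sim1 in subcluster 1.

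Male and female members were compared over 9401 genes with at least 100 summed UMIs. In male members 172 genes (1.83%) were higher by log2 0.5 or more and 156 (1.66%) were lower by as much, with a median over all genes of -0.02. The rule genes differed little: Gucy1a1 was at 97.7 CPM in male and 77.2 CPM in female members (log2 0.34, interval 0.18 to 0.50), Npnt at 0.33, Ogn at 0.22, Foxf1 at 0.08, Slit2 at -0.15 and Rspo3 at -0.19. In reference barcodes, by contrast, Ogn was at 16.4 CPM for males against 8.43 CPM for females, a log2 ratio of 0.96 (0.80 to 1.12). Of the genes that led the members, Tcf21 was at log2 0.68 (0.43 to 0.93) and Aldh1a2 at 0.04 (-0.18 to 0.25).

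Acta2, Tagln and Actg2, all contractile genes, had ratios above log2 2. Acta2 was at 177 CPM in male and 31.0 CPM in female members (log2 2.51, interval 2.32 to 2.71), against 55.6 and 41.7 CPM in male and female reference barcodes (log2 0.42, 0.34 to 0.49). Other populations had such ratios too, with 2.06 (1.94 to 2.17) in barcodes with 2 or 3 rule genes, 3.62 (2.02 to 5.93) in the Aldh1a2, Tcf21 and Wt1 barcodes, on 3 female UMIs, and 4.73 (2.83 to 7.79) in endothelial barcodes, on 2 female UMIs. It was -0.06 in the Sim1, Tbx15 and Agtr2 barcodes and 0.19 in the Msx1, Msx2 and Dlx5 barcodes. Tagln was at 78.2 and 15.7 CPM in male and female members (log2 2.32), and at 1.05 in reference barcodes. The enteric smooth muscle actin gene Actg2 was at 22.4 and 1.93 CPM (log2 3.54, interval 2.80 to 4.36), on 17 female UMIs. In reference barcodes Actg2 was at 4.96, on 3 female UMIs. The smooth muscle myosin gene Myh11 was at 0.75 (0.18 to 1.32) in members. An Acta2 UMI was found in 57 of 592 male members (9.63%, interval 7.37 to 12.3%) and 42 of 719 female members (5.84%), and at least 5 UMIs in 30 and 12 of them. With the 2% of members of each library that had the most UMIs of the gene left out, Acta2 was at 3.60 and Tagln at 0.83. For Acta2 this took out every female member with at least 5 UMIs but left some such male members. The 10 female members with the most held 223 of the 273 female Acta2 UMIs. The value of 3.60 thus rests on few female UMIs and does not show a wider difference. Actg2, with its own highest 2% left out, was at 2.03, a value that rests on at most a few of its 17 female UMIs or on the floor. With barcodes thinned to 4000 UMIs Tagln was at -0.50 on a few UMIs.

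Many fibrous matrix genes were higher in male members. Of 19 measured, 17 were above 0, against 45.0% of all genes, and 12 had intervals above 0, with a median of 0.26 in members and 0.18 in reference barcodes. Col1a1 was at 351 CPM in male and 197 CPM in female members (log2 0.83, interval 0.74 to 0.93), with 0.43 in reference barcodes and 0.44 in members without the 2% with the most Col1a1 UMIs. Col12a1 was at 1.16, the elastin gene Eln at 0.92 and Postn at 0.77, while the intervals of the elastic fibre genes Fbn1, Fbn2, Fbln1, Fbln5 and Mfap4 held 0. Lum was at 36.3 and 16.9 CPM in male and female members (log2 1.10) but at 0.47 without the 2% of members with the most. Pnoc, the precursor gene of the neuropeptide nociceptin and the leading gene of subcluster 2, was at 25.6 CPM in male and 9.43 CPM in female members (log2 1.44, interval 1.04 to 1.85). Anxa1 was at 1.17 and Parm1 at 1.27, the second of which came to 0.38 without its highest 2% of members. The other 6 of the 12 highest genes were the histone genes Hist1h2ap, Hist1h2ae, Hist1h1e and Hist1h1b, whose reads can be split among near-identical copies, and the overlapping non-coding genes AY036118 and Gm42418. All 6 were also above 0 in reference barcodes, at 0.54 to 1.60.

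Among the 12 genes highest in female members, at 20 CPM or more there and 200 or more summed UMIs, Sox9 and Khdrbs2 had ratios above 0 in reference barcodes. Sox9 (chromosome 11) was at 82.6 CPM in male and 123 CPM in female members (log2 -0.57, interval -0.73 to -0.41), against 50.2 and 44.9 CPM in male and female reference barcodes (log2 0.16, 0.08 to 0.24). A Sox9 UMI was found in 177 male (29.9%) and 261 female members (36.3%). These shares were counted without thinning, and female members were deeper, at a median of 9566 against 8223 UMIs. Without the 2% with the most UMIs the Sox9 ratio was -0.53. Khdrbs2, one of the 15 genes highest in members, was at 26.8 and 39.9 CPM in male and female members (log2 -0.57, -0.86 to -0.30) and at 0.09 in reference barcodes. Eif2s3x, an X-linked gene that escapes X inactivation, was the lowest of these at -0.86, with -0.77 in reference barcodes. Grem1, below both limits with 34 male and 126 female UMIs, was lower at -1.28 (interval -1.87 to -0.72), with -0.82 in reference barcodes. Usp36, Lin7a, Mecom, Rhog, Zcchc14, Zfp180, Nmt1 and D930016D06Rik lay between -0.80 and -0.60. Of 15 mitosis genes 14 were lower in male members, against 55.0% of all genes, with a median of -0.19 in members and -0.09 in reference barcodes, beside the smaller share of male members in subcluster 6.

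**Figure D5:**
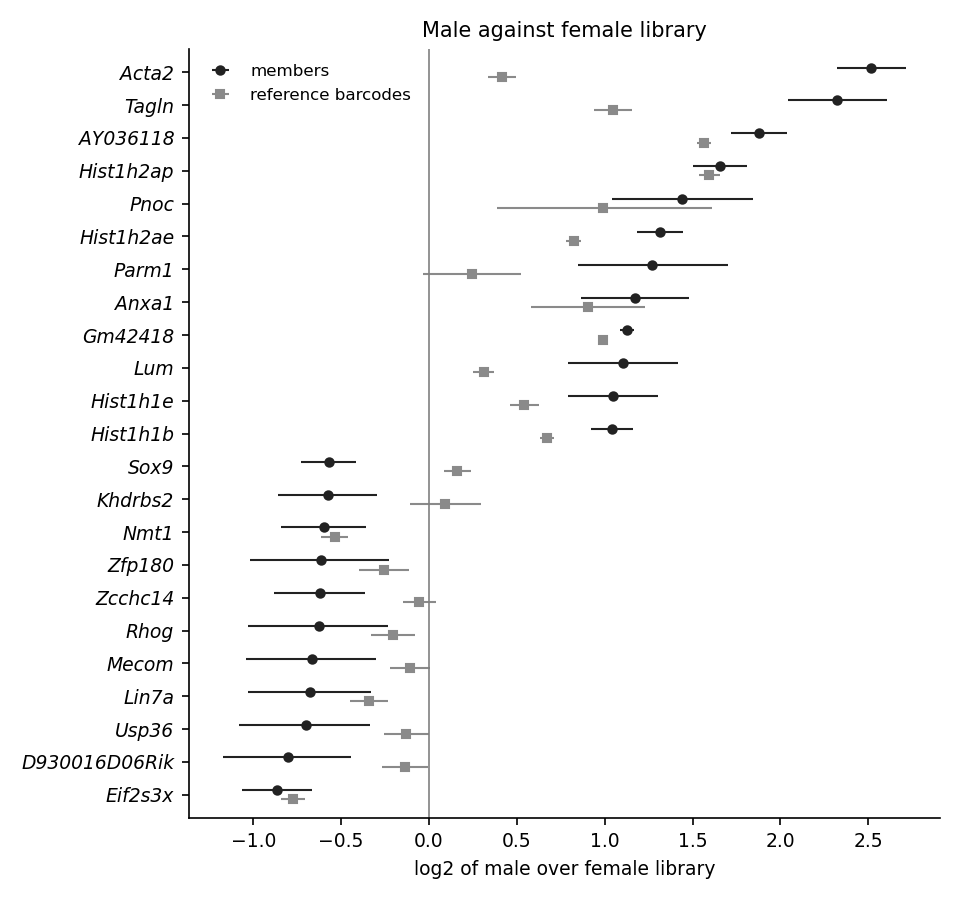
log2 ratio of the male over the female library (x axis) in members (black circles) and in reference barcodes (grey squares) for 23 genes named by rule, with exact 95% intervals for counting error. Acta2 lies at 2.51 in members and 0.42 in reference barcodes, and Sox9 at -0.57 and 0.16.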

How the data were processed

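RNA of single cells was counted in 2 droplet libraries, 1 of pooled male and 1 of pooled female tubercles. The authors deposited raw UMI counts per gene and barcode, made with Cell Ranger 3.1 on mm10 per the submitters' processing notes, with all barcodes and no cell calls or annotation. The sources used here give no strand setting, so genes that overlap others (Ogn, Slit2, Rspo3, Foxf1, Tcf21, Rarb, Khdrbs2, Tagln and AY036118 among them) are uncertain. From these counts barcodes were filtered and members chosen as described, UMIs were summed per library and population, and log2 ratios were given with exact 95% conditional Poisson intervals and shares with exact Clopper-Pearson intervals. Both cover counting error only, since UMIs of 1 library are not replicates. A ratio against 0 uses a floor of 3 counts. No doublet caller was run, and leaving out barcodes above 2 times the median UMIs was tried instead. The members and gene lists were chosen with earlier results of these data known. Genes were named as the 15 highest and 15 lowest in members by the smaller of both log2 ratios and the 12 highest and 12 lowest male over female, with at least 20 CPM in the higher group, at least 100 summed UMIs (200 between the sexes) and no Xist, Y-linked, haemoglobin, mitochondrial or rule gene, and as up to 4 genes of each list with the largest ratios. Gas1, Cdon, Wnt4, Fgf9, Fgf10, Col3a1, Tyrobp, elastic fibre genes and the genes beside rule genes were added with their values in view. Subclusters came from Leiden clustering at resolution 0.6 on 1000 variable genes and 15 components. On counts simulated with Poisson error the interval held the true ratio for 95.4% of 11678 genes (male) and 95.5% of 11786 genes (female). The interval assumes that same error, so this checks the calculation alone. It cannot show how the interval holds for UMIs that gather in few barcodes, as those of Acta2 did. Python 3.11.15, numpy 2.4.6, scipy 1.17.1, pandas 2.3.3, scanpy 1.11.5 and matplotlib 3.10.9 were used. Sequences are from RefSeq on GRCm38, and 30934 gene identifiers matched GENCODE. In all, 17 alternative settings were tried. Some genes that the rule names are not reported here.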

Additional observations from a re-analysis of the deposited data

Results flagged for a closer look

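Among 206 named genes compared, 2 lay on opposite sides of the reference in the 2 libraries with both intervals clear of 0, and this difference between the libraries was not tested. Acta2 was at 177 CPM in members against 55.6 CPM in reference barcodes of the male library (log2 1.67) and at 31.0 against 41.7 CPM in the female library (log2 -0.43), a difference of 2.10. Hist1h1b was at 230 CPM in members against 210 CPM in reference barcodes of the male library (log2 0.13, interval 0.05 to 0.21) and at 112 against 132 CPM in the female library (log2 -0.24, -0.34 to -0.15), a difference of 0.37.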

How the results depend on the processing

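No paired analysis was possible because each sex has 1 library and the labels share only the number 1. The share of members depends on depth and on the rule. It was 4.04% of male and 4.53% of female barcodes at 2000 UMIs, 7.33% and 8.52% at 6000 UMIs, 2.95% and 2.64% with at most 5% mitochondrial UMIs, 14.1% and 15.7% with 3 or more rule genes, 1.23% and 1.51% with 5 or more, 1.67% and 1.48% after thinning, and 3.83% and 4.18% with barcodes above 2 times the median depth left out.

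With at most 5% mitochondrial UMIs 25 male and 22 female members were left. Genes higher and lower in members then numbered 22 and 45, and those higher and lower in male members 58 and 65. Log2 ratios over the reference turned to -0.16 for Gucy1b1, -1.34 for Akap12, -1.86 for Mylk, -1.32 for Acta2, -2.34 for Tagln and 0.047 for Etv4 in the male library, and to -0.27 for Calml4, -0.66 for Prkg2, 0.16 for Postn, 0.10 for Dlx2, 0.12 for Msx2, 0.12 for Spock3 and 0.041 for Ndrg1 in the female library. Tagln in male members over reference was at -0.98 after thinning and -0.61 without the deepest barcodes, and male over female at -0.50 after thinning, and Sp9 was at -0.55 male over female without the deepest barcodes. Genes higher in members numbered 94 against all other kept barcodes. Higher and lower genes in members were 286 and 323 with a minimum of 20 summed UMIs, 59 and 90 with 500, and 55 and 54 with a pseudocount of 5 CPM. Higher and lower genes in male members were 59 and 97 after thinning, 680 and 471 with 20 summed UMIs, 26 and 18 with 500, and 70 and 29 with the pseudocount, and 96 were lower with 3 or more rule genes. The cause of these shifts was not tested. Over the settings run for each comparison and gene, named genes had the sign reported in 1000 of 1003 values over the reference. Male over female, they had it in 366 of 374 values. The values over the reference include the rule genes, whose sign there is set by the choice of members. The other genes named by rule were picked for the largest ratios in these same data. Much of this agreement is thus built in, and these counts are no independent check. Of the 17 settings, 2 were run for the left-out rule genes alone and the one without the highest 2% of members for male over female alone. Leaving out a replicate was not possible with 1 library per sex, and depth limits every gene under 20 summed UMIs, for which no ratio was given.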
